A study of Mus musculus with 10 samples.

Results

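The genes of the AMP-activated protein kinase (AMPK), of its upstream kinase LKB1 and of the sirtuins SIRT1 and SIRT3 were described in skeletal muscle of mice fed with or without added L-carnitine. They were 10 of 22180 genes named on the array. The 7 AMPK subunit genes, Stk11, Sirt1 and Sirt3 were each taken by symbol, as the probe set annotated to that gene alone with the highest mean over all 10 arrays, and each of them had exactly 1 such probe set. All animals were male mice of the outbred NMRI stock, put on the experiment at an age of 3 weeks and kept in cages of 5. Control mice (n = 5) ate a basal diet of natural ingredients with less than 5 mg carnitine per kg, and carnitine mice (n = 5) ate that diet with 1000 mg L-carnitine added per kg. The whole study killed 10 mice per diet at each of 9, 15 and 18 months, and the labels do not give the age of the array mice, though the series title speaks of advanced age. Each array holds 1 RNA sample from the gastrocnemius, a calf muscle, picked at random from its diet group and taken here as 1 mouse.

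AMPK is a trimer of a catalytic alpha, a scaffolding beta and a nucleotide-binding gamma subunit, and it is switched on when AMP and ADP rise and LKB1 phosphorylates the activation loop of alpha. Active AMPK favours fatty acid oxidation and glucose uptake and slows lipid and protein synthesis. In skeletal muscle the alpha2, beta2 and gamma3 isoforms form a muscle-specific complex that is known from fast glycolytic fibres. SIRT1 and SIRT3 are deacetylases that consume NAD+, the first mostly in the nucleus and the second in mitochondria. L-carnitine is the carrier on which long-chain fatty acids enter mitochondria for oxidation.

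The values are RMA log2 values as deposited by the authors, so a step of 1 is a doubling, and every difference is carnitine minus control. The level of background was read from 1394 olfactory and vomeronasal receptor genes, which muscle is not known to express and whose 95th percentile was 5.78. All 8 skeletal muscle markers lay above it, with a mean between 13.21 and 13.31 on each array, and of 5 hepatocyte markers Alb lay under it at 4.97 while 3 lay above it, the highest being Apoa1 at 6.52. Correlations between arrays over all probe sets ran from 0.969 to 0.994. The array of control replicate 5 had the narrowest spread of values (interquartile range 2.20, where the rest lay at 2.39 to 2.59). Of the other cell type lists, the fibroblast score ranged from 7.74 to 8.63 in control and from 8.16 to 8.83 in carnitine, the endothelial score from 7.99 to 8.86 and from 8.22 to 8.75, and the adipocyte score from 5.56 to 6.40 and from 5.64 to 6.10. The part these cells play in the values below was not tested.

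All 10 genes were measured above the receptor background on every array, and the muscle isoforms Prkaa2 and Prkab2 gave by far the brightest signals. Prkaa2 averaged 11.56 ± 0.17 (SD over 10 arrays), above 99.3% of genes, and Prkab2 11.25 ± 0.24, above 99.1%. Then came Prkag3 at 9.53 ± 0.46, Stk11 at 9.46 ± 0.16, Prkag1 at 9.03 ± 0.20, Prkaa1 at 8.63 ± 0.27, Prkab1 at 8.24 ± 0.08 and Sirt1 at 8.04 ± 0.11. Sirt3 at 7.03 ± 0.21 and Prkag2 at 6.19 ± 0.11 were the dimmest, and Prkag2 lay close to the median gene (6.14). The probes of different genes bind with different strength, so this is an order of signals and not of transcript amounts.

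Most places in that order were the same on nearly all arrays. Prkaa2 exceeded Prkab2 on 10 of 10 arrays by 0.31 ± 0.11 (SD of the gap), and Prkab2 exceeded Prkag3 on 10 of 10 by 1.72 ± 0.27. Prkag3 and Stk11 were not separated, with a gap of 0.08 ± 0.46 and Prkag3 ahead on 7 of 10 arrays. The gaps between Prkag1 and Prkaa1 (0.40 ± 0.27), Prkaa1 and Prkab1 (0.39 ± 0.28), and Prkab1 and Sirt1 (0.20 ± 0.16) held on 9 of 10 arrays each. Sirt1 lay above Sirt3 and Sirt3 above Prkag2 on all 10.

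**Figure D1:**
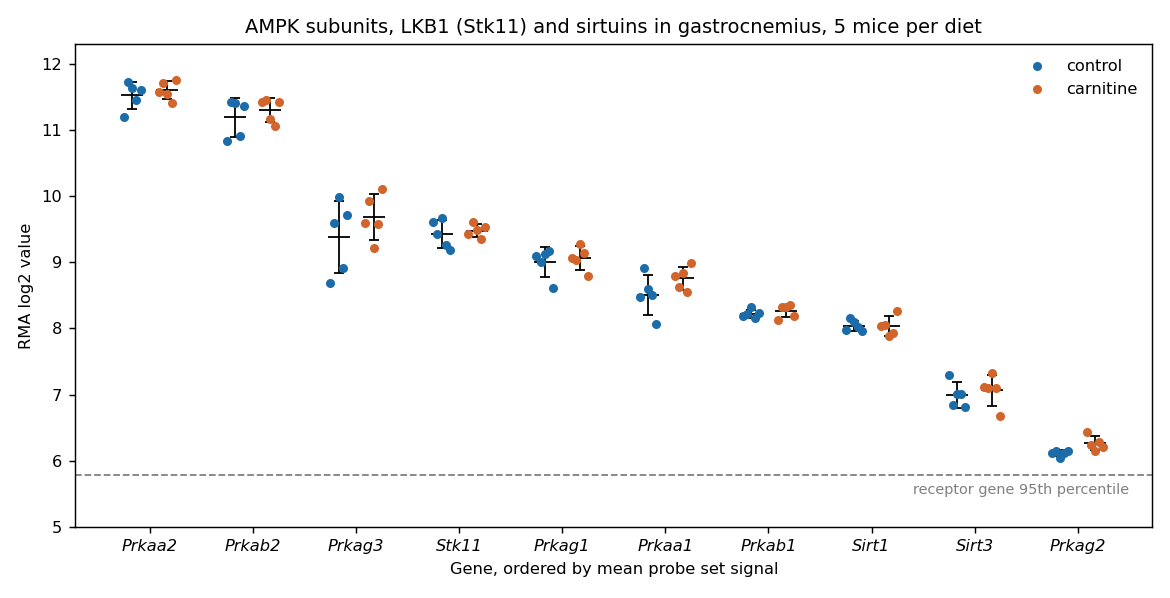
RMA log2 value of each gene (y axis) for the 10 genes ordered by mean signal (x axis), in control (blue) and carnitine (orange) mice, each point 1 array, with bars for the mean ± SD of 5 arrays and a dashed line at the receptor gene 95th percentile of 5.78. The groups overlap in every gene, and the order of the genes is alike in both groups, from Prkaa2 at about 11.56 to Prkag2 at 6.19.

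None of the 10 genes differed between the diets past the threshold of an adjusted p of 0.05, in limma with Benjamini-Hochberg adjustment over all 22180 genes. The smallest adjusted p among them was 0.72, and 0 of them had an unadjusted p below 0.05, against 6.97% of all genes. Over all genes, 0 (0%) passed the adjusted threshold and 1546 had an unadjusted p below 0.05, 45.0% of them higher in carnitine. After each array was centred on its median, 62.5% of the genes at that p were higher, as were 62.3% of all genes. After cyclic loess the share at that p was 49.4%, and after quantile normalization 49.1%. In 0 of the 10 genes were the groups free of overlap, against 1.11% of all genes (0.505% with carnitine higher and 0.609% with carnitine lower). Of the 10 genes, 9 had a positive difference, with a median of 0.07, where 47.7% of all genes were positive and the median gene stood at -0.01. Without control replicate 5, 7 were positive with a median of 0.07, against 51.1% of all genes. After cyclic loess 5 of 10 were positive, against 50.7% of all genes. All 10 genes lay above the median gene in level, whereas these shares are over bright and dim genes alike. Slow-fibre genes had the widest gap between diets of the marker lists: the mean log2 value of 10 such genes was 9.33 ± 0.395 in control and 8.34 ± 1.11 in carnitine (SD, n = 5 each), and 7 of the 10 were lower in carnitine at an unadjusted p below 0.05 and 0 past the adjusted threshold in limma. The part of this shift in the differences of the genes below was not tested.

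**Figure D2:**
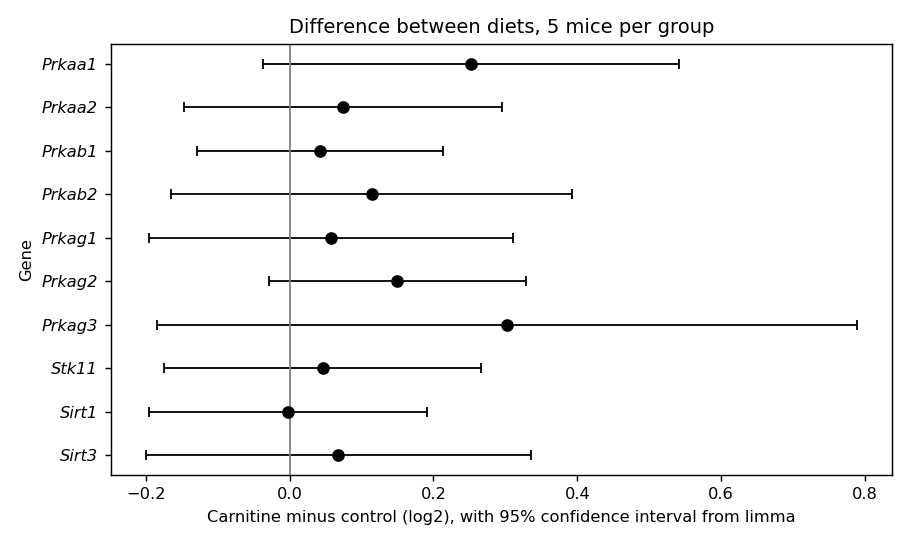
Carnitine minus control difference on the log2 scale (x axis) for each gene (y axis), with 95% confidence intervals from limma as bars, 5 mice per group. All 10 intervals include 0, and that of Prkag3 is the widest, from -0.18 to 0.79.

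Of the catalytic subunits, Prkaa1, which encodes the widely expressed alpha1, had the larger difference. Its control values in replicates 1 to 5 were 8.47, 8.91, 8.59, 8.50 and 8.07, and its carnitine values were 8.79, 8.63, 8.84, 8.55 and 8.99. All 5 carnitine mice lay above the control mean, yet control replicate 2 lay above all but carnitine replicate 5. The difference was 0.25 (SE 0.14), or 19.1% with a 95% interval from -2.55% to 45.5%, with an adjusted p of 0.72. It was 0.14 without control replicate 5, the array with the lowest Prkaa1 value. Without control replicate 2 it was 0.35, with an unadjusted p of 0.013 and an adjusted p of 0.38 in limma.

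Prkaa2, which encodes the alpha2 that predominates in muscle, read 11.20, 11.73, 11.63, 11.46 and 11.60 in control and 11.57, 11.71, 11.55, 11.41 and 11.75 in carnitine. Control replicate 1 alone lay below every other mouse. The means were 11.52 ± 0.21 and 11.60 ± 0.14 (SD, n = 5 each), a difference of 0.07 (SE 0.10), which was -0.01 without control replicate 1 and -0.02 after cyclic loess. The 95% interval of the change ran from -9.67% to 22.7%.

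The beta subunits tie alpha and gamma together and bind glycogen. Prkab1, for beta1, was the steadiest of the AMPK subunits, at 8.22 ± 0.06 in control and 8.26 ± 0.10 in carnitine (SD, n = 5 each), with a difference of 0.04 (SE 0.08) that turned to -0.05 after cyclic loess and -0.04 after quantile normalization. Prkab2, for the muscle form beta2, read 10.84, 11.43, 11.41, 10.91 and 11.36 in control and 11.42, 11.45, 11.16, 11.06 and 11.43 in carnitine. Control replicates 1 and 4 were the lowest of the 10 and carnitine replicates 3 and 4 came next, while the other 6 mice lay within 11.36 to 11.45. The diets differed by 0.11 (SE 0.13), with a 95% interval from -10.8% to 31.3%, and by 0.0265 without control replicate 1 and 0.04 without control replicate 4.

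Among the gamma subunits, which sense AMP, ADP and ATP, Prkag3 for the muscle-specific gamma3 varied most between mice of all 10 genes. In control it read 8.69, 9.60, 9.98, 8.92 and 9.71, and in carnitine 9.59, 9.93, 9.21, 9.58 and 10.10. Control replicates 1 and 4 were again the lowest, followed by carnitine replicate 3. The means were 9.38 ± 0.55 and 9.68 ± 0.35 (SD, n = 5 each), a difference of 0.30 (SE 0.23, adjusted p = 0.74 in limma) or 23.3%, with a 95% interval from -12.0% to 72.7%. It was 0.13 without control replicate 1, 0.19 without control replicate 4 and 0.20 without carnitine replicate 5, and 0.45 without control replicate 3.

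Prkag2 encodes gamma2, the isoform known for its role in the heart. It read 6.12, 6.14, 6.04, 6.12 and 6.15 in control and 6.44, 6.24, 6.15, 6.28 and 6.21 in carnitine. No carnitine mouse lay below any control, and carnitine replicate 3 and control replicate 5 shared the value 6.15. The difference was 0.15 (SE 0.08), or 11.0% with a 95% interval from -1.98% to 25.6%. Its unadjusted p was 0.094 and its adjusted p 0.72 in limma, and its SD was 0.04 in control and 0.11 in carnitine. The exact two-sided permutation test gave an unadjusted p of 0.0159, where 0.00794 is the smallest that 5 against 5 allows and the other 9 genes gave 0.143 to 1.

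Prkag1, for the widely expressed gamma1, read 9.10, 9.01, 9.12, 9.17 and 8.61 in control and 9.06, 9.03, 9.28, 9.14 and 8.79 in carnitine. Replicate 5 was the lowest in each group. The difference of 0.06 (SE 0.12) became -0.04 without control replicate 5, 0.003 without carnitine replicate 3, -0.05 after cyclic loess and -0.04 after quantile normalization.

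For Stk11, which encodes LKB1, the control mean was 9.43 ± 0.21 and the carnitine mean 9.48 ± 0.10 (SD, n = 5 each). Control mice spanned 9.19 to 9.67 and enclosed all carnitine mice, which spanned 9.35 to 9.61. The difference of 0.05 (SE 0.10) has a 95% interval from -11.3% to 20.2%, and it was -0.01 without control replicate 5, -0.06 after cyclic loess and -0.05 after quantile normalization.

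Sirt1 had the smallest difference of the 10 genes. Its control mean was 8.04 ± 0.08 and its carnitine mean 8.04 ± 0.15 (SD, n = 5 each), a difference of -0.002 (SE 0.090), with a 95% interval from -12.6% to 14.1%, and its sign turned after median centring (0.05) and with some arrays left out. The highest value of the 10 mice, 8.27, and the lowest, 7.89, were both in carnitine mice, replicates 5 and 3. Sirt3 read 7.30, 6.84, 7.01, 7.01 and 6.81 in control and 7.11, 7.10, 7.32, 7.10 and 6.68 in carnitine. The difference was 0.07 (SE 0.12), with a 95% interval from -12.9% to 26.1%, and it ranged from 0.0035 without carnitine replicate 3 and 0.022 without control replicate 5 to 0.16 without carnitine replicate 5. Carnitine replicate 5, the highest for Sirt1, was the lowest for Sirt3.

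The balance between isoforms was compared as the difference of the log2 values of a pair on the same array, in which a shift of a whole array cancels. Prkaa2 over Prkaa1 read 3.02 ± 0.31 in control and 2.84 ± 0.15 in carnitine (SD, n = 5 each), a change of -0.18 (exact permutation p = 0.317) that was -0.0495 without control replicate 5. Prkab2 over Prkab1 changed by 0.07 (exact permutation p = 0.611), from 2.97 ± 0.24 to 3.04 ± 0.25. In the gamma family, Prkag3 over Prkag1 changed by 0.24 (exact permutation p = 0.532), Prkag2 over Prkag1 by 0.09 (p = 0.563, exact) and Prkag3 over Prkag2 by 0.15 (p = 0.619, exact). After adjustment over the 5 pairs every exact p was 0.619, and no pair passed the threshold. Prkag3 over Prkag1 changed by 0.047 without control replicate 1 and by 0.42 without control replicate 5, Prkag2 over Prkag1 by 0.038 without carnitine replicate 5 and by 0.20 without control replicate 5, Prkab2 over Prkab1 by -0.0055 without control replicate 1, and Prkag3 over Prkag2 by -0.02 without that array.

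The balance of gamma3 and gamma1 differed more from mouse to mouse than between the diets. Prkag3 lay below Prkag1 in control replicates 1 (-0.41) and 4 (-0.25) and in carnitine replicate 3 (-0.07), and above it in the other 7 mice, up to 1.10 in control replicate 5 and 1.31 in carnitine replicate 5.

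**Figure D3:**
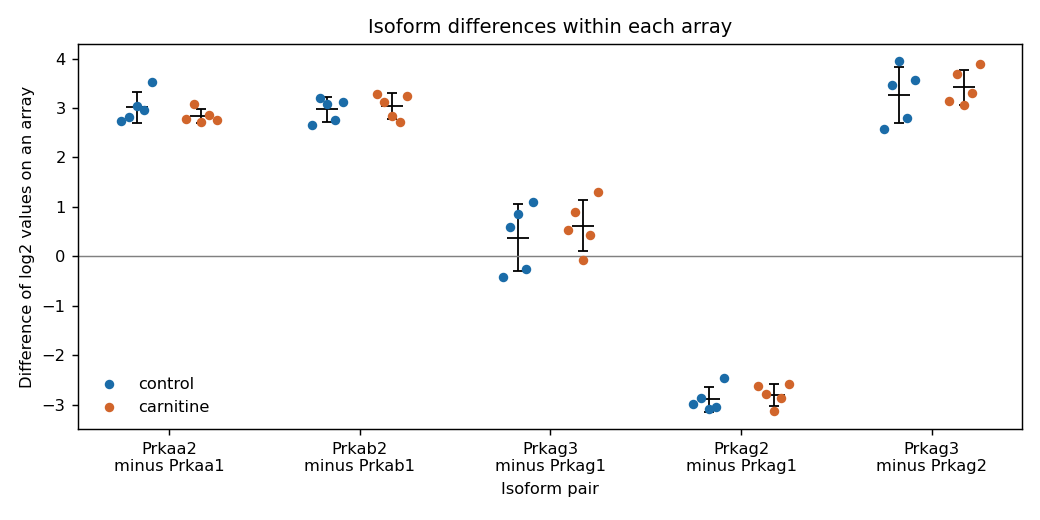
Difference of the log2 values of a pair of isoforms on the same array (y axis) for 5 pairs (x axis), in control (blue) and carnitine (orange) mice, with bars for the mean ± SD of 5 arrays. The groups overlap in each pair, and Prkag3 minus Prkag1 spreads widely in both, from -0.41 to 1.10 in control and from -0.07 to 1.31 in carnitine.

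The transcripts of the 3 subunits of the muscle-specific complex, Prkaa2, Prkab2 and Prkag3, went up and down together across the mice. Of 45 pairs among the 10 genes, 3 passed an adjusted permutation p of 0.05 by Pearson's r over 10 arrays, and these 3 are the pairs of that complex. For Prkaa2 and Prkab2, r was 0.903 (permutation p = 0.00019, adjusted over 45 pairs 0.00855) and rho 0.912 (permutation p = 0.00054, adjusted 0.0243). For Prkab2 and Prkag3, r was 0.889 (permutation p = 0.00124, adjusted 0.0279) and rho 0.809 (permutation p = 0.00636, adjusted 0.0954), so that pair passed by r alone. For Prkaa2 and Prkag3, r was 0.827 (permutation p = 0.0027, adjusted 0.0405) and rho 0.879 (permutation p = 0.00173, adjusted 0.0389). The pairs were computed after the values had been seen.

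The 3 correlations were nearly as large with the diets' means taken out and without the array of narrow spread. With the group means removed, r was 0.898 for Prkaa2 and Prkab2, 0.883 for Prkab2 and Prkag3 and 0.818 for Prkaa2 and Prkag3, and without control replicate 5 it was 0.906, 0.887 and 0.826. Each diet alone holds 5 arrays, too few for a correlation of its own. Without the 2 arrays farthest from the median of the first gene, r was 0.821 for Prkaa2 and Prkab2, 0.633 for Prkab2 and Prkag3 and 0.824 for Prkaa2 and Prkag3. Control replicates 1 and 4, the 2 arrays left out for Prkab2, were the lowest in both Prkab2 and Prkag3. Without control replicate 1, r for Prkaa2 and Prkag3 was 0.681, its lowest with any array left out. Measured against the 11093 other genes at or above the median level, with group means removed, Prkab2 ranked 30 of all genes in its r with Prkaa2, Prkag3 ranked 47 in its r with Prkab2 and Prkag3 ranked 140 in its r with Prkaa2.

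The other isoforms did not follow this group. Prkaa1, Prkab1 and Prkag2 had r between 0.07 and 0.43 with Prkaa2, Prkab2 and Prkag3, and Prkag1 had r of -0.40, -0.47 and -0.48 with them, none past the adjusted threshold. Without control replicate 5, the array of narrow spread, the r of Prkaa1 was 0.728 with Prkaa2, 0.673 with Prkab2 and 0.504 with Prkag3. Over all 10 arrays its rho with them was 0.648, 0.669 and 0.418, none past the adjusted threshold. Prkag1 and Sirt3 had an r of 0.767 (permutation p = 0.00824, adjusted 0.0927; rho 0.665, permutation p = 0.0398, adjusted 0.175), which fell to 0.575 without the 2 arrays farthest from the median of Prkag1. Sirt1 had r of 0.641 with Prkaa2, 0.555 with Prkab2 and 0.567 with Prkag3, and rho of 0.794, 0.705 and 0.673. None of these passed the adjusted threshold. Sirt1 and Sirt3 had an r of -0.739 (permutation p = 0.0139, adjusted 0.125; rho -0.591, permutation p = 0.0752, adjusted 0.226), which was -0.364 without carnitine replicates 3 and 5 and -0.920 without control replicate 5.

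**Figure D4:**
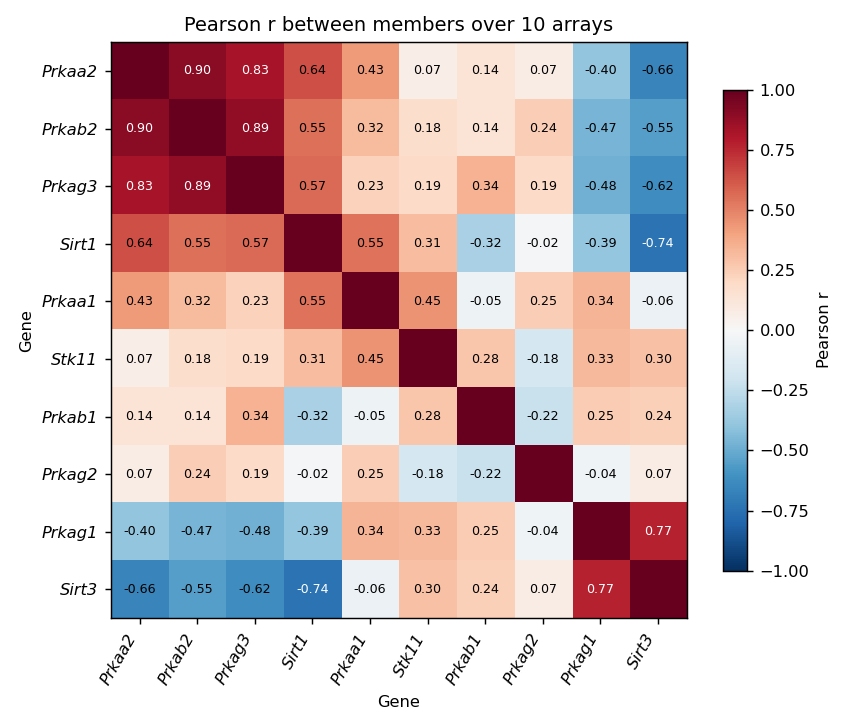
Pearson r over 10 arrays between each pair of the 10 genes (both axes list the genes), printed in each cell and coloured from blue (-1) to red (1). Prkaa2, Prkab2 and Prkag3 form the block with r from 0.827 to 0.903, and Sirt3 and Prkag1 have negative r with them.

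The promoters of these 3 genes are shown because their signals varied together, from 250 bases before to 50 after the annotated start, as given by RefSeq for GRCm38.p6. Windows were found for all 10 genes. Capitals mark GC boxes, GGGCGG on either strand, in Prkaa2 and Prkab2, and an E-box, CANNTG, in Prkag3. The first lies at chr4:105109849-105110148 on the minus strand, the second at chr3:97657962-97658261 on the plus strand and the third at chr1:74748906-74749205 on the minus strand.
Prkaa2: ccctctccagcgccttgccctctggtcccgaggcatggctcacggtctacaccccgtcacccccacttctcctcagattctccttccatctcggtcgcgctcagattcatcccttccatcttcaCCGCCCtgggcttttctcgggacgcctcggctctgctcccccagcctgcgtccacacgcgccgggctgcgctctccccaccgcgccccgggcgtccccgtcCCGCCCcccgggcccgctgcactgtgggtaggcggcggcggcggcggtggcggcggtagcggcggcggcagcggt
Prkab2: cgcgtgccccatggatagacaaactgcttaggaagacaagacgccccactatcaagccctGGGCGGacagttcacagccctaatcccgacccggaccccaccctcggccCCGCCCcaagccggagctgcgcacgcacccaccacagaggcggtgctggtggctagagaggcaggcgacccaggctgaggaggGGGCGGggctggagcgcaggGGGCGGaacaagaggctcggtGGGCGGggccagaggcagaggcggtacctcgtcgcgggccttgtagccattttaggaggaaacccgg
Prkag3: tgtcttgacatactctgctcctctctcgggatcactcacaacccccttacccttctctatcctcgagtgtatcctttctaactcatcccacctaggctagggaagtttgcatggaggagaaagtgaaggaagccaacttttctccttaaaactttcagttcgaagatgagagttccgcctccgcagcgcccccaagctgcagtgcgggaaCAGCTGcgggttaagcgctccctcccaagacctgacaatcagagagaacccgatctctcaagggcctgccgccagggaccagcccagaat
No motif searched was present in all 3 windows. The window of Prkaa2 has 2 GC boxes and that of Prkab2 has 5, and neither holds an E-box, while that of Prkag3 has 0 GC boxes and 1 E-box, which reads CAGCTG and begins 40 bases before the start. Over 32851 windows of the same length, 35.7% held a GC box, 72.3% an E-box, 16.3% an E-box of the CAGCTG form, which is counted among the E-boxes too, 13.6% the TATA box TATAAA and 3.69% the MEF2 core (CTA and TAG with any 4 bases between them), each searched on both strands. None of the 3 windows held the TATA box or the MEF2 core. Their GC content was 72.7%, 68.0% and 54.0%, against a median of 52.7% over all windows.

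Slow-fibre genes varied widely between these mice. Prkaa2 and Prkab2 were lower where slow-fibre genes were higher by rank correlation, which did not pass by Pearson's r, and Prkag3 had a correlation of the same sign that passed by neither. The slow-fibre score, the mean log2 value of 10 genes such as Myh7 and Tnnc1, was 9.77, 8.96, 9.30, 9.69 and 8.93 in control replicates 1 to 5 and 8.32, 7.57, 9.27, 9.59 and 6.95 in carnitine. Control replicates 1 and 4, with the highest scores, had the lowest Prkab2 and Prkag3, and carnitine replicates 5 and 2, with the lowest scores, had the highest Prkag3 but for control replicate 3. In whole muscle, fewer slow fibres and less slow-fibre RNA per fibre cannot be told apart.

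Over 10 arrays and 10 genes, 0 passed an adjusted p of 0.05 by Pearson's r with the score, 4 had an unadjusted p below 0.05, and 2 passed by Spearman's rho. For Prkaa2, r was -0.722 (permutation p = 0.0198, adjusted 0.0745) and rho -0.806 (permutation p = 0.00726, adjusted 0.0363). For Prkab2, r was -0.714 (permutation p = 0.0204, adjusted 0.0745) and rho -0.881 (permutation p = 0.00134, adjusted 0.0134). For Prkag3, r was -0.711 (permutation p = 0.0223, adjusted 0.0745) and rho -0.758 (permutation p = 0.0152, adjusted 0.0507). All 3 kept their sign without carnitine replicates 2 and 5, the arrays farthest from the median score, with r of -0.653, -0.830 and -0.565, and with the group means removed, with r of -0.733, -0.711 and -0.665.

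Prkab2 read 11.36 to 11.45 in 6 mice with scores from 6.95 to 9.30, and 10.84 to 11.16 in the 4 mice with scores from 9.27 to 9.77. Sirt1 had an r of -0.678 (permutation p = 0.0324, adjusted 0.081; rho -0.491, permutation p = 0.154, adjusted 0.22), which was -0.327 without the 2 farthest arrays, -0.342 without carnitine replicate 5 alone and -0.747 without carnitine replicate 2, so it rests on carnitine replicate 5. With the group means removed it was -0.819. Sirt3 and Prkag1 had positive r of 0.510 (permutation p = 0.133, adjusted 0.229; rho 0.396, permutation p = 0.258, adjusted 0.322) and 0.491 (permutation p = 0.137, adjusted 0.229; rho 0.673, permutation p = 0.039, adjusted 0.0975), which were 0.163 and 0.291 without carnitine replicate 5. Given the slow-fibre score, the partial correlation was 0.801 for Prkaa2 and Prkab2, 0.775 for Prkab2 and Prkag3 and 0.644 for Prkaa2 and Prkag3, as a description.

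**Figure D5:**
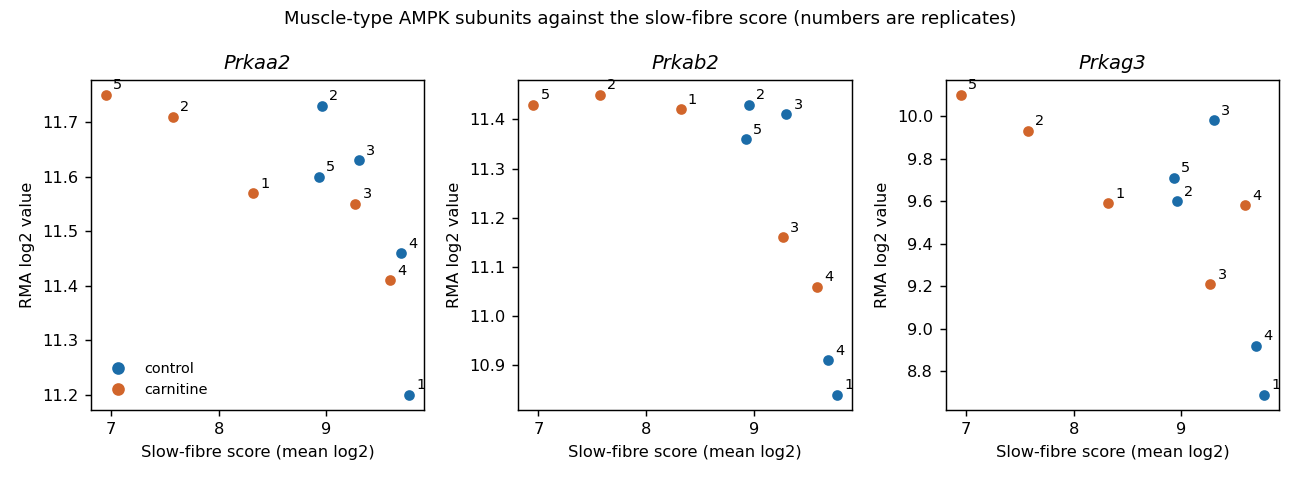
RMA log2 value of Prkaa2, Prkab2 and Prkag3 (y axes) against the slow-fibre score, the mean log2 value of 10 slow-fibre genes (x axes), in control (blue) and carnitine (orange) mice, with replicate numbers beside the points. Control replicates 1 and 4, at scores of 9.77 and 9.69, are the lowest in Prkab2 and Prkag3, and the carnitine mice reach down to a score of 6.95.

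The genes around AMPK and the sirtuins were described in 8 lists, 90 measured genes in all, and 0 of them passed the adjusted threshold over all genes in limma. The counts below stand against 47.7% of all genes with a positive difference and 6.97% with an unadjusted p below 0.05 in limma. Of the partners of LKB1 and the other AMPK kinases, 5 of 6 had a positive difference (median 0.12), with 1 at an unadjusted p below 0.05, where 3.14% of all genes were higher and 3.83% lower at that p. That gene is Stradb, for the pseudokinase that activates LKB1, at 0.20 (SE 0.09, adjusted p = 0.71). Cab39l, for a scaffold of the LKB1 complex, differed by 0.19 (SE 0.11), and Camkk2, for the calcium-dependent AMPK kinase, by -0.05 (SE 0.12), which became positive when arrays were centred on their medians and when control replicate 5 was left out. Among 11 other kinases listed as AMPK-related, 8 were positive (median 0.03) and 0 had an unadjusted p below 0.05. The count was 4 after cyclic loess (median -0.01) and 5 without control replicate 5 (median -0.01). Sik2 differed by 0.16, Snrk by 0.18 (0.04 without control replicate 5), Melk by -0.15 and Nuak1 by -0.13. Melk, at a mean of 5.01, lay under the receptor background of 5.78, so its difference is one of background signal.

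Of 17 genes for AMPK substrates, 11 were positive (median 0.06) and 0 had an unadjusted p below 0.05, and after cyclic loess 6 were positive and the median was -0.03. Mff, for the mitochondrial fission factor, differed by 0.17 (SE 0.09). Acacb, for the acetyl-CoA carboxylase that controls fatty acid entry into mitochondria, differed by -0.05 (SE 0.17), and Lipe, for hormone-sensitive lipase, by -0.13 (SE 0.10). Tsc2, the brake on mTORC1, stood at 0.10 (SE 0.09), which turned negative after cyclic loess, and Txnip, which restrains glucose uptake, at -0.08 (SE 0.09).

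In the list of AMPK regulators and AMP handling, 12 of 15 genes were positive (median 0.07), against 47.7% of all genes. In limma 1 of the 15 had an unadjusted p below 0.05, a share near the 6.97% of all genes. Ampd1, the muscle AMP deaminase that removes the AMP that AMPK senses, read 11.84, 12.12, 12.14, 11.79 and 12.11 in control and 12.16, 12.34, 12.24, 12.18 and 12.17 in carnitine. All 5 carnitine mice lay above every control, as in 0.505% of all genes, though the lowest carnitine value was 12.16 and the highest control value 12.14. The mean difference was 0.22 (SE 0.09, unadjusted p = 0.025 and adjusted p = 0.71 in limma). It was 0.27 after median centring, 0.13 after cyclic loess and 0.15 after quantile normalization. After cyclic loess or quantile normalization the list held 0 genes higher and 1 lower at an unadjusted p below 0.05 in limma. Fnip1, for the folliculin partner that binds AMPK, differed by 0.21 (SE 0.10). Ampd3 and Ampd2, for other AMP deaminases, differed by -0.33 (SE 0.19) and -0.08 (SE 0.09). Ampd2, at a mean of 5.79, lay close to the receptor background of 5.78.

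Of the 5 other sirtuins, 4 were positive (median 0.05) and 0 had an unadjusted p below 0.05, and after cyclic loess 2 were positive. Sirt2, the mainly cytosolic sirtuin, averaged 10.38 in control and 10.48 in carnitine, with a difference of 0.10 (SE 0.07) that was -0.005 after cyclic loess. Sirt7, of the nucleolus, differed by 0.12 (SE 0.12), and Sirt4, of mitochondria, by -0.10 (SE 0.09).

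Of 18 genes of NAD synthesis and consumption, 11 were positive (median 0.05), and 3 were higher and 0 lower at an unadjusted p below 0.05. Of all genes, 3.14% were higher and 3.83% lower at that p. The count was 2 higher and 1 lower after cyclic loess, after quantile normalization and without control replicate 5. It was 1 higher without control replicate 2, carnitine replicate 2 or carnitine replicate 5, and 4 higher without control replicate 1. Slc25a51, for the carrier that takes NAD+ into mitochondria, read 6.79, 6.61, 6.40, 6.72 and 6.57 in control and 6.89, 6.93, 6.97, 6.67 and 6.96 in carnitine. Carnitine replicate 4 lay within the control range and the other 4 above it, and the difference was 0.27 (SE 0.10, adjusted p = 0.71 in limma). Parp1, for an enzyme that consumes NAD+ in DNA repair, differed by 0.23 (SE 0.10), and Nmrk1, for a kinase that starts NAD+ synthesis from the riboside, by 0.43 (SE 0.18), the latter named after its value was seen. Nampt, the rate-limiting enzyme of NAD+ salvage, differed by 0.18 (SE 0.10). Nnt, the mitochondrial transhydrogenase, differed by -0.40 (SE 0.23), and Nmnat2 by -0.12 (SE 0.14). Nmrk1 and Nmnat2 lay near the median gene, at means of 6.03 and 5.99.

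Of 11 genes for SIRT3 substrates, 5 were positive, with a median of -0.03 (-0.11 after cyclic loess). In limma 1 of them was higher and 0 lower at an unadjusted p below 0.05, against 3.14% and 3.83% of all genes. After cyclic loess or quantile normalization the list held 0 genes higher and 1 lower at that p. Glud1, for glutamate dehydrogenase, differed by 0.20 (SE 0.08, adjusted p = 0.71 in limma), and Ppif, for cyclophilin D, by 0.17 (SE 0.14). The difference of Glud1 was 0.09 after cyclic loess and 0.10 after quantile normalization. Sdha, for the catalytic subunit of succinate dehydrogenase, differed by -0.17 (SE 0.08, unadjusted p = 0.058 in limma), with a range from -0.22 to -0.13 when any 1 array was left out, and Idh2, for the mitochondrial NADP-dependent isocitrate dehydrogenase, by -0.25 (SE 0.28). Of 10 genes for SIRT1 substrates and regulators, 9 were positive (median 0.06) and 0 had an unadjusted p below 0.05, and after cyclic loess 4 were positive. At that p in limma the list held 1 gene lower with array weights, cyclic loess, quantile normalization or without control replicate 5. It held 1 gene higher without control replicate 2 or control replicate 4. Hif1a, for the hypoxia factor, differed by 0.24 (SE 0.11), Rela, for an NF-kB subunit, by 0.12 (SE 0.10) and Foxo1 by -0.21 (SE 0.12). Foxo1 stood at -0.29 after cyclic loess and after quantile normalization, and at -0.28 without control replicate 5. Ppargc1a, for the coactivator that both AMPK and SIRT1 act on, differed by 0.01 (SE 0.12), and its sign turned after cyclic loess, after quantile normalization and without control replicate 5.

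Several of these differences rest on single arrays. Without control replicate 5, the difference was 0.04 in Tsc2, -0.23 in Acacb, 0.04 in Rela, 0.14 in Hif1a, -0.04 in Ampd2, -0.0045 in Nmnat2, -0.38 in Idh2 and 0.27 in Nmrk1. Without carnitine replicate 5 it was 0.08 in Sik2, -0.26 in Nnt, -0.06 in Sirt4, 0.29 in Ppif and -0.07 in Idh2. Ampd3 stood at -0.18 without control replicate 4, Melk at -0.08 and Nuak1 at -0.08 without carnitine replicate 2, Sirt7 at 0.05 without carnitine replicate 1 and 0.21 without control replicate 1, Lipe at -0.07 and Acacb at 0.06 without control replicate 1, and Txnip at -0.04 without control replicate 2. Without control replicate 5, the list medians were 0.06 for the LKB1 partners, 0.01 for AMPK substrates, 0.03 for AMPK regulators, 0.09 for other sirtuins, 0.02 for NAD genes, -0.04 for SIRT3 substrates and 0.04 for the SIRT1 list, of whose genes 6 were then positive. The LKB1 partners and the SIRT3 substrates then held 0 genes with an unadjusted p below 0.05.

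The genes most like each member in their deviations from the group means were sought among 11093 genes over 10 arrays, and the r values are given as a description. Prkag3 was closest to Camk2a (r = 0.987) and Sort1 (0.971), Prkab2 to Snx2 (0.979) and St3gal1 (0.957), and Prkaa2 to Mlec (0.966) and 4833439L19Rik (0.961). Prkag1 was closest to Gabarap (0.983) and Rpl38 (0.977), Sirt3 to Mrpl12 (0.976) and Mfn2 (0.976), and Sirt1 to Ccdc191 (0.982) and Jarid2 (0.968). For Prkaa1 these were Dimt1 (0.964) and Gosr1 (0.959), for Stk11 Uckl1 (0.960) and Jph2 (0.954), for Prkag2 Pde3a (0.917) and Rsl24d1 (0.891), and for Prkab1 Prpsap1 (0.892) and Dhrs1 (0.873). The values of Prkab1 and Prkag2 were the lowest of the 10 genes.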

How the data were processed

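The deposited table holds log2 values of 34390 probe sets on 10 arrays, which the authors made with RMA in Affymetrix Expression Console, per the submitters' processing notes. The array is the Affymetrix Mouse Gene 2.0 Sense Target array, per the series' design text, and no source used here gives tool versions or the genome build. RMA removes background, brings arrays to a common distribution and summarises probes, so a change in total RNA cannot be seen and differences of dim genes shrink. The deposited probe set values still differed in distribution, with array medians from 5.72 to 5.96 and interquartile ranges from 2.20 to 2.59. Probe sets were named from the platform annotation: 23521 have 1 symbol, 1814 several and 9055 are not listed. For 1082 genes with more than 1 probe set the one with the highest mean was kept.

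Diets were compared with limma 3.58.1 in R 4.3.3 (lmFit, eBayes with a mean-variance trend) over 22180 genes, two-sided, with Benjamini-Hochberg adjustment at 0.05 and no filter on dim genes. The median half-width of the 95% interval of a difference was 0.24, a precision limited by the number of arrays. The fit was also run on simulated data with independent noise for each gene, and the outcome is not given here. An array of narrow spread, such as control replicate 5, was not simulated. Isoform differences were tested by exact permutation over 252 assignments, and correlations with 100000 resamples. Alternatives were a replicate block, other variance models, array weights, 3 rescalings, a filter on dim genes, other probe set rules and the omission of each array. Named genes are the 10 members, up to 2 genes per direction and list with the smallest p, 5 genes fixed by name, and the 2 genes most alike to each member. The text leaves out some that the rule allows, and Nmrk1 was added after its value was seen. The members and lists were chosen with earlier results of these data known. The labels do not state that each RNA sample is a separate mouse, and p-values measure only the spread between these samples.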

Additional observations from a re-analysis of the deposited data

Results flagged for a closer look

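In groups of 5 mice, a sample was singled out when its gap to the nearest mouse took up more than 0.71 of the range of the group, a rule that chance meets in about 1 group in 20. Of 34 groups checked, over the 10 genes, the 5 isoform pairs, the slow-fibre score and the array range, 2 met it. Prkag1 in control replicate 5 read 8.61, against 9.01 to 9.17 in the other controls. This is the array with the narrow range of values, and without it the difference of Prkag1 between diets turned from 0.06 to -0.04. Prkag2 in control replicate 3 read 6.04, against 6.12 to 6.15 in the other controls; without control replicate 3 the call on Prkag2 was the same.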

How the results depend on the processing

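Among the 10 genes, 0 passed the adjusted threshold in limma under any of the alternatives, the threshold of 0.10 included, and the lowest adjusted p of any of them was 0.38, for Prkaa1 without control replicate 2. No isoform pair passed under any alternative, and with the replicate block the count for genes and for pairs stayed at 0 and 1802 genes had an unadjusted p below 0.05. Of the samples with the same number, deviations from the group means correlated at 0.24, 0.01, -0.13, 0.23 and 0.10 for replicates 1 to 5. Such values cannot settle whether the numbers pair mice, and the labels do not say that they do. Of the 5 control arrays, 2 were closest to the carnitine array of their own number. Of the 5 carnitine arrays, 0 were closest to the control array of their own number. The count of genes past the adjusted threshold ranged from 0 to 1 with an array left out, the 1 being without control replicate 2. The count at an unadjusted p below 0.05 was 733 with genes at or above the median level, where fewer genes were tested, 2437 over all probe sets, where more were, and 1115 to 2560 with an array left out, the highest without control replicate 2. The count of the 10 genes at that p was 1 after median centring, cyclic loess or quantile normalization, each time Prkag2 (differences of 0.20, 0.18 and 0.18), and 0 to 1 with an array left out, the 1 being Prkaa1 without control replicate 2. For Prkag2 the exact permutation test of the same difference of 0.15 gave an unadjusted p of 0.0159, and limma 0.094. Of the 10 genes, 5 were positive after cyclic loess and 7 to 10 with an array left out. Signs turned after cyclic loess in Prkaa2 (-0.017), Prkab1 (-0.049), Prkag1 (-0.046) and Stk11 (-0.060), after quantile normalization in Prkab1 (-0.041), Prkag1 (-0.040) and Stk11 (-0.047), and after median centring in Sirt1 (0.048). With an array left out, Prkaa2 ranged from -0.007 (without control replicate 1) to 0.126, Prkag1 from -0.040 (without control replicate 5) to 0.126, Prkab1 from 0.020 to 0.075, Stk11 from -0.0145 (without control replicate 5) to 0.106, Sirt1 from -0.0605 to 0.0345, Prkab2 over Prkab1 from -0.0055 and Prkag3 over Prkag2 from -0.022 (both without control replicate 1) to 0.155 and 0.321, and the r of Prkab1 with the slow-fibre score from -0.081 to 0.317. The cause of these turns was not tested. No gene passed the adjusted threshold for Pearson's r with the slow-fibre score under cyclic loess or with an array left out, and r after cyclic loess was -0.53 for Prkaa2, -0.58 for Prkab2 and -0.62 for Prkag3. The order of the 10 signals was the same when probe sets of a gene were averaged and in the carnitine group alone, and 8 of 10 places were the same in the control group alone. Dim signals near the receptor background limit what can be seen for Prkag2.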

Other observations

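A second probe set on the array is annotated to both Prkag2 and its antisense transcript Prkag2os1 and was not used for either gene. Its control mean was 5.66 ± 0.30 and its carnitine mean 5.69 ± 0.08 (SD, n = 5 each), close to the receptor background of 5.78, with a difference of 0.03 against the 0.15 of the probe set that names Prkag2 alone.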
